A study of Mus musculus with 12 samples.

Results

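The genes described here are the caspases, the apoptosome scaffold and the inhibitor of apoptosis (IAP) genes of tumour-associated macrophages (TAMs): Casp6, Casp8, Casp9, Casp12, Apaf1, Xiap, Birc2 and Birc3. They were taken by gene symbol, from a list drawn up with earlier results of these data known, and are 8 of the 55401 genes listed in each of the deposited count tables. All 8 had enough counts to be tested in both comparisons, and each symbol occurred on a single row.

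Apoptosis is carried out by caspases, proteases that are made as inactive precursors. Signals from death receptors activate caspase-8, encoded by Casp8, whereas cytochrome c released from mitochondria assembles the Apaf1 protein into the apoptosome, which activates caspase-9 (Casp9). Caspase-6 (Casp6) acts downstream as an executioner. Caspase-12 (Casp12) belongs to the inflammatory caspase gene cluster in the mouse and has been studied in endoplasmic reticulum stress. Xiap binds and inhibits caspases directly, while cIAP1 (Birc2) and cIAP2 (Birc3) are ubiquitin ligases of the TNF receptor complexes that shape NF-kB signalling and keep caspase-8 in check. Birc3 is a well-known NF-kB target gene. In macrophages these genes take part in the choice between survival and death after inflammatory signals.

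RNA was sequenced from TAMs sorted from subcutaneous B16-F10 melanomas grown in mice on the C57BL/6 background, 5 weeks old when used. The methods give the TAM gate as CD45+CD11b+Ly6C-Ly6G-F4/80+, but legends of the supplementary figures write Ly6C+Ly6G+ or Ly6G-Ly6C+ instead. One table held 3 AMPK-KO samples (AMPKfl/flLyz2cre/cre) and 3 WT samples (AMPKfl/fl), both from day 15 after implantation, and asked what loss of AMPK, the energy-sensing kinase, changes in TAMs. The other held 3 early-stage (day 8) and 3 late-stage (day 15) samples, all labelled WT and untreated, and asked what changes as the tumour progresses. Both groups of the first table share the floxed allele. By the labels only the AMPK-KO samples carry cre, so loss of AMPK and presence of the cre allele cannot be told apart. Cre driven from Lyz2 acts across myeloid cells, not in macrophages alone, and the genotyping primers concern the floxed AMPKα1 gene. For AMPK-KO replicates 2 and 3 the genotype label writes the cre as Lyz3cre and Lyz4cre. Nothing in the labels says whether replicates were separate animals, so p-values measure only the spread between these samples, which may be technical.

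The 12 libraries held 71019494 to 84470374 counts each. Prkaa1, which encodes AMPKα1, fell from 65.0 ± 3.34 CPM (counts scaled to the TMM-adjusted library size) in WT to 42.9 ± 3.53 CPM in AMPK-KO samples (SD, n = 3 each, log2 fold change −0.60, SE 0.07, edgeR adjusted p = 0.000226). Its RNA was thus reduced and not absent in the libraries labelled AMPK-KO. The counts are summed over the whole gene, so transcripts without the deleted exon still count. These values therefore do not measure how complete the knockout was. Of the macrophage markers, Adgre1 lay at 810 to 1004 CPM and Csf1r at 922 to 1344 CPM over all libraries. Others differed more between groups. From WT to AMPK-KO samples, mean Cd68 went from 1361 to 931, Mrc1 from 1767 to 1237 and Apoe from 4557 to 3287 CPM. These 3 of the 12 were lower (edgeR adjusted p under 0.05), and 2 were higher (Csf1r, and Itgam, from 1067 to 1566 CPM). Between stages, 2 were lower (Lyz2, and Mrc1, from 1198 to 778 CPM) and 1 was higher (C1qa). Lyz2 did not follow the labels. It was at 9.16 to 13.5 CPM in both WT and AMPK-KO samples but at 1092 to 3009 CPM in early-stage and late-stage samples. Lyz2 therefore does not show which samples carried cre, and the groups are used as labelled. Sex-linked RNA also went against the methods, which name female mice. The summed counts of 4 Y-linked genes were 9229 to 11360 in WT, 11299 to 12183 in AMPK-KO, 3435 to 4035 in early-stage and 0 to 4 in late-stage samples, whereas Xist had 60 to 158, 0 to 8, 13568 to 22094 and 23982 to 41700 counts. Tumour stage and the sex-linked RNA therefore cannot be told apart, which touches the X-linked gene Xiap in particular.

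The genes that changed in the knockout comparison below include Casp12, Birc2 and Birc3, all on chromosome 9 (GRCm38, GENCODE M21). Casp12 (ENSMUSG00000025887.10) spans chr9:5345430-5373032 on the plus strand. Birc2 (ENSMUSG00000057367.12, chr9:7818227-7837064) and Birc3 (ENSMUSG00000032000.17, chr9:7848699-7873186) both lie on the minus strand, with a gap of 11634 bases between them, and Birc2 is 2445194 bases from Casp12. Apaf1 (ENSMUSG00000019979.12, chr10:90989311-91082770, minus strand) is the remaining gene that changed. The other genes are Casp6 (ENSMUSG00000027997.9, chr3:129901425-129914103, plus strand), Casp8 (ENSMUSG00000026029.14, chr1:58795374-58847503, plus strand), Casp9 (ENSMUSG00000028914.13, chr4:141793612-141815976, plus strand) and Xiap (ENSMUSG00000025860.15, chrX:42059679-42109656, plus strand). The sequences upstream of the first exon are shown for Casp12, Birc2 and Birc3 because these genes share a chromosome and moved in the same direction, yet their upstream sequences differ in composition. They are RefSeq sequences of GRCm38.p6, written 5′ to 3′ on the strand of the gene, with motif matches in capitals.
Casp12, chr9:5345226-5345429, plus strand: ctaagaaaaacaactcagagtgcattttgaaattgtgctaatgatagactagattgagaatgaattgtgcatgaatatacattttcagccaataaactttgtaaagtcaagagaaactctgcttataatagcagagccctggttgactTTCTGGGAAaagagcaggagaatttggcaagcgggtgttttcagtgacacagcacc
Birc2, chr9:7837065-7837307, minus strand: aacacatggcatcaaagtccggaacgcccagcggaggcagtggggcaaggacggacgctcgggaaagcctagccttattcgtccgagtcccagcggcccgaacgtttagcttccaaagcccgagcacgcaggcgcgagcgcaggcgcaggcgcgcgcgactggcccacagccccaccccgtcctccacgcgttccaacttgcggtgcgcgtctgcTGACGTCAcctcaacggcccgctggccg
Birc3, chr9:7873187-7873420, minus strand: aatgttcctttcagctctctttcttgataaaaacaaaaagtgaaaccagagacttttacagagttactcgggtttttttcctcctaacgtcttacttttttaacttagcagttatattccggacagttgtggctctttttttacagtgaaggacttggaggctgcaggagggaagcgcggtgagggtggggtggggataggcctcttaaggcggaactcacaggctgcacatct

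All 8 genes had at least 1 promoter window of 300 bases (250 before and 50 after the RefSeq start). The Birc2 window that contains the sequence above was 67.0% G or C with 34 CpG dinucleotides, against medians of 52.7% and 7 over 32851 mouse windows. The Birc3 window had 43.0% and 7, and the Casp12 window 41.0% and 3. Motifs, chosen after these sequences had been seen, were searched on both strands: the kB motif (GGG and TTTCC with any 2 bases between them), the ISRE motif (GAAA and GAAA with any 2 bases between them), TTCNNNGAA (GAS), TGACGTCA (CRE) and GGGCGG (GC box). The Casp12 window held 2 GAS matches, 1 of them within the printed part, and 8.3% of all windows hold at least 1. The Birc2 window held 1 CRE match, found in 1.79% of all windows. The Birc3 window held none of these letters, nor did any window of the 8 genes hold the kB letters (1.63% of all windows) or the ISRE letters (3.44%). GC boxes (35.7% of all windows) occurred 3 times in the Apaf1 window, 4 times in that of Casp9, 3 times in that of Casp6, and 2 times each in a second window of Birc2 and in 2 of the 3 windows of Xiap. A match is a string of letters and not evidence of binding, and the lack of one says nothing of the factor.

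In AMPK-KO TAMs, 4 of the 8 genes were higher than in WT TAMs and none was lower, either in the edgeR test, at an unadjusted p under 0.05 or by DESeq2. Casp12 rose 2.34-fold, Birc3 1.45-fold, Birc2 1.31-fold and Apaf1 1.16-fold, so both cIAP genes, the apoptosome scaffold and the least abundant caspase of the 8 rose, while Casp8 had the same mean of 149 CPM in both groups. The call was an adjusted p under 0.05 in the quasi-likelihood test of edgeR, adjusted by the Benjamini-Hochberg method over all 17532 genes tested. By this rule 11.3% of all tested genes were higher and 9.78% lower (21.1% in either direction), so the knockout comparison had many calls of its own. The median log2 fold change of the 8 genes was 0.23 (range 0.00 to 1.23), beside −0.004 over all genes tested. In these bulk samples, fewer cells of a type and less RNA per cell cannot be told apart.

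Among the IAP genes, Birc3 showed the clearest separation. Its level, in CPM, was 73.1, 70.3 and 74.0 in WT replicates 1 to 3 and 108, 104 and 103 in AMPK-KO replicates 1 to 3. Every AMPK-KO sample lay above every WT sample, and the spread within each group was small beside the gap. The log2 fold change was 0.54 (SE 0.05, unadjusted 95% interval 0.42 to 0.65, adjusted p = 4.48e-05). Birc2 was lower in level than Birc3, with 30.6, 28.3 and 25.6 CPM in WT and 38.6, 35.3 and 36.9 CPM in AMPK-KO samples. Again the groups did not overlap, and the log2 fold change was 0.39 (SE 0.08, interval 0.21 to 0.57, adjusted p = 0.00628). Xiap, the direct caspase inhibitor, had 94.7, 80.6 and 82.9 CPM in WT and 109, 98.4 and 86.6 CPM in AMPK-KO samples. WT replicate 1 reached into the AMPK-KO range, and the difference did not pass the test (log2 fold change 0.19, SE 0.09, interval −0.01 to 0.38, adjusted p = 0.177). That interval still allows a rise of up to 30.3%.

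Of the apoptosome genes, Apaf1 had 78.6, 73.0 and 75.3 CPM in WT and 92.8, 88.6 and 82.6 CPM in AMPK-KO samples. The groups did not overlap, although AMPK-KO replicate 3 stood closer to the WT samples than the others did (log2 fold change 0.22, SE 0.06, interval 0.08 to 0.35, adjusted p = 0.0274). This call was the least stable of the 4: it was lost without AMPK-KO replicate 1 (adjusted p = 0.117) or replicate 2 (0.1), without WT replicate 2 (0.0806) or replicate 3 (0.108), and with no filter on low counts (0.0593), with a range of 0.0101 to 0.117 over 12 alternatives. Casp12, Birc2 and Birc3 were called in all 12. Casp9, the protease activated on the apoptosome, had 40.4, 36.2 and 35.8 CPM in WT and 45.3, 41.7 and 39.9 CPM in AMPK-KO samples. WT replicate 1 lay just above AMPK-KO replicate 3, and Casp9 was not called (log2 fold change 0.17, SE 0.07, interval 0.01 to 0.34, adjusted p = 0.133). Of its exon bases, 1.81% are shared with Cela2a and Ctrc on the opposite strand, and the strand setting of the counting is not given in the sources used here.

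Casp8, the initiator caspase of death receptors, differed from the other genes in its steadiness. It had 148, 149.9 and 149 CPM in WT and 151, 149 and 148 CPM in AMPK-KO samples. All 6 values thus fell within a narrow band, with a log2 fold change of 0.00 (SE 0.04, interval −0.10 to 0.10, adjusted p = 0.985). The unadjusted interval runs from −6.55% to 7.25% and covers only the spread between these samples. The executioner gene Casp6 had 20.2, 23.3 and 20.1 CPM in WT and 25.3, 22.7 and 27.5 CPM in AMPK-KO samples. AMPK-KO replicate 2 lay below WT replicate 2, and the difference was not called (log2 fold change 0.25, SE 0.10, interval 0.03 to 0.46, adjusted p = 0.104).

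Casp12 had the lowest level of the 8 and the largest change. Its counts were 77, 124 and 173 in WT and 333, 291 and 273 in AMPK-KO replicates 1 to 3, or 1.07, 1.72 and 2.12 against 4.51, 3.63 and 3.38 CPM. The WT samples varied about their mean more than those of the other genes did, with 1.64 ± 0.531 CPM (SD, n = 3), but all lay under the AMPK-KO samples (3.84 ± 0.596 CPM). The log2 fold change was 1.23 (SE 0.26, interval 0.66 to 1.80, adjusted p = 0.00683).

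Groups without overlap were found for the 4 called genes only, all with the AMPK-KO samples higher, a pattern shown by 18.8% of all genes tested (18.4% had the AMPK-KO samples lower, and 37.2% did not overlap in either direction). An unadjusted p under 0.05 was found for 6 of the 8 genes (32.6% of all genes), Casp6 and Casp9 being added to the called ones.

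**Figure D1:**
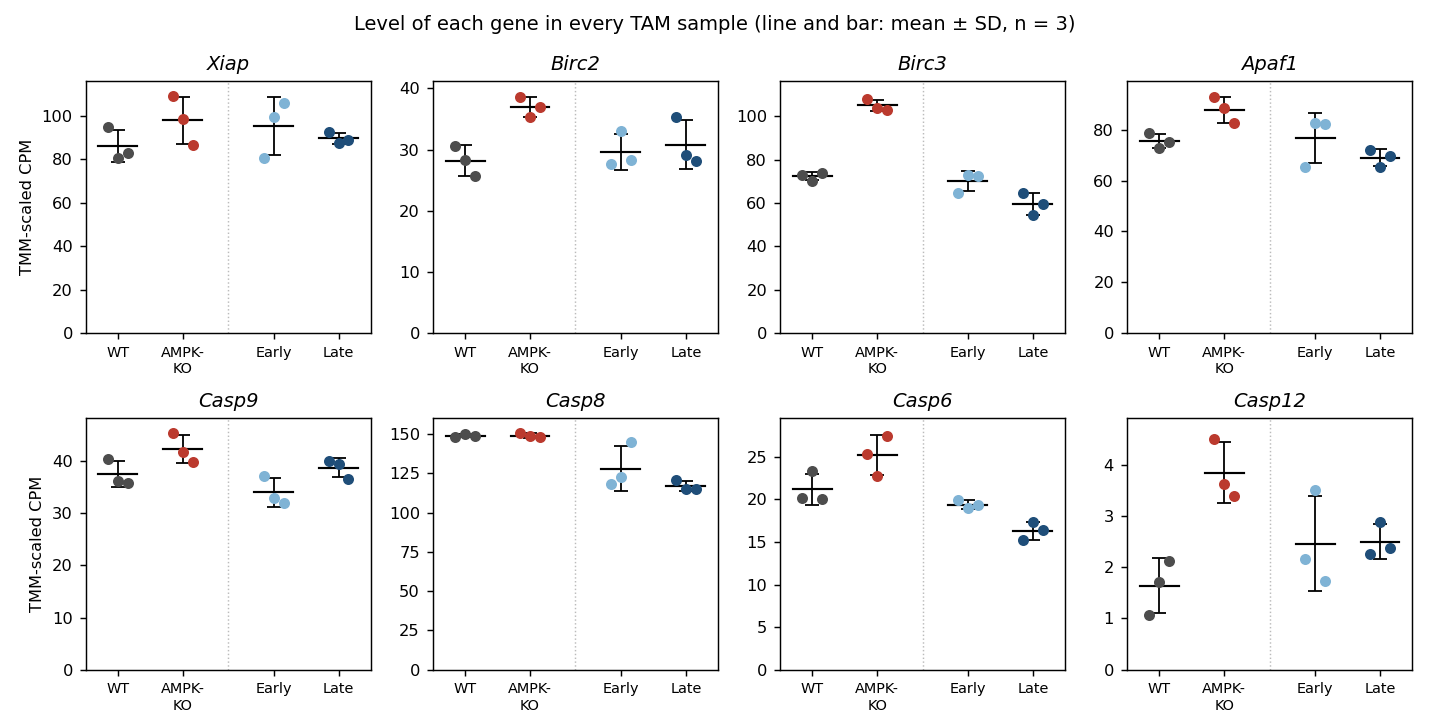
Level of each of the 8 genes as TMM-scaled CPM in every sample, 1 panel per gene, with a point per sample, a line at the mean and a bar of 1 SD (n = 3). The AMPK-KO points of Birc2, Birc3, Apaf1 and Casp12 all lie above the WT points, the Casp8 points of both groups lie between 148 and 151, and in the stage comparison the groups of 7 of the 8 genes overlap.

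Markers of other cell types moved with the genotype. From WT to AMPK-KO samples, summed marker levels went from 109–124 to 196–202 CPM for T cells (7 of 8 genes higher), from 50.6–60.1 to 136–143 CPM for NK cells (7 of 7 higher) and from 91.6–104 to 144–154 CPM for conventional dendritic cells (7 of 7 higher). For neutrophils the sum went from 116–119 to 174–179 CPM (3 of 6 tested genes higher; Ly6g had no count in any of these 6 samples and Csf3r made up most of the sum). Fibroblast markers went from 569–616 to 739.7–819 CPM (5 of 5 higher), and endothelial markers from 56.2–68.6 to 125–128 CPM (2 of 4 tested higher, 1 lower). B16 melanoma markers fell from 998–999 to 676–716 CPM (6 of 7 lower), B cell markers from 30.9–32.5 to 19.9–22.1 CPM (4 of 5 lower, among them Cd79a, Ms4a1 and Pax5, with means of 3.14–5.13 CPM in WT and 0.033–0.392 CPM in AMPK-KO samples, and Cd79b, most of the AMPK-KO sum, higher at 15.4 and 20.3 CPM), and the macrophage sum was 18083–20189.8 CPM in WT and 16640.2–17283 CPM in AMPK-KO samples (2 of 12 higher, 3 lower). The part of these shifts in the differences of Casp12, Birc2, Birc3 and Apaf1, or of the pathway genes below, was not tested.

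Between early-stage and late-stage TAMs, none of the 8 genes was called higher or lower, where 9.18% of the 17630 genes tested were called (4.31% higher, 4.88% lower) by the same edgeR test. The log2 fold changes ran from −0.25 for Casp6 to 0.19 for Casp9, with a median of −0.11 beside 0.003 over all genes tested. Casp6 and Birc3 had an unadjusted p under 0.05, as had 24.5% of all genes, and DESeq2 also called none of the 8.

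Casp6 was the gene whose groups did not overlap, with 19.9, 19.0 and 19.3 CPM in early-stage and 15.2, 17.3 and 16.4 CPM in late-stage replicates 1 to 3. Late-stage samples were lower by this pattern for 15.6% of all genes (31.2% did not overlap in either direction), and the difference of Casp6 did not pass the adjustment (log2 fold change −0.25, SE 0.10, interval −0.47 to −0.03, adjusted p = 0.156). Birc3 had 64.5, 72.8 and 72.6 CPM in early-stage and 64.8, 54.6 and 59.3 CPM in late-stage samples. Late-stage replicate 1 stood level with early-stage replicate 1, and the other late-stage samples lay below both (log2 fold change −0.23, SE 0.09, interval −0.43 to −0.03, adjusted p = 0.143). For this gene, the value in the knockout comparison was positive and that in the stage comparison negative, but only the first was called and the difference between them was not tested.

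Birc2 had 27.6, 33.0 and 28.3 CPM in early-stage and 35.4, 29.1 and 28.1 CPM in late-stage samples, and its groups covered much the same range (log2 fold change 0.06, interval −0.21 to 0.32, adjusted p = 0.815). Xiap had 80.4, 99.6 and 106 CPM in early-stage and 92.5, 87.3 and 88.8 CPM in late-stage samples. Its late-stage samples lay close together inside the wider early-stage range (log2 fold change −0.09, interval −0.32 to 0.14, adjusted p = 0.638). Apaf1 had 65.4, 82.7 and 82.5 CPM in early-stage and 71.9, 65.4 and 69.9 CPM in late-stage samples. Early-stage replicate 1 was the low sample for both Apaf1 and Xiap. For Apaf1 the log2 fold change was −0.15 (interval −0.38 to 0.07, adjusted p = 0.392) with that sample and −0.26 (adjusted p = 0.0406) without it, and this is the only alternative in which any of the 8 genes was called between stages.

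Casp8 had 118, 123 and 145 CPM in early-stage and 121, 115 and 115 CPM in late-stage samples, early-stage replicate 3 being the highest (log2 fold change −0.13, interval −0.33 to 0.06, adjusted p = 0.388). Casp9 had 37.1, 32.9 and 32.0 CPM in early-stage and 40.1, 39.4 and 36.6 CPM in late-stage samples, which overlapped through early-stage replicate 1 (log2 fold change 0.19, interval −0.02 to 0.39, adjusted p = 0.246). Casp12 had 179, 271 and 143 counts in early-stage and 189, 231 and 196 counts in late-stage samples (2.46 ± 0.926 and 2.50 ± 0.337 CPM, SD, n = 3). The early-stage samples of Casp12 spanned all late-stage values (log2 fold change 0.02, interval −0.61 to 0.65, adjusted p = 0.973), an interval that allows a change of −34.4% to 57.4%.

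The early-stage libraries stood apart from each other, most of all replicates 1 and 3, with chi-square values per gene of 52.2 to 176 between pairs of libraries against 11 to 52.8 within the other groups. Markers of other cell types moved with stage as well. Summed NK cell markers went from 126–141 CPM in early-stage to 63.4–78.6 CPM in late-stage samples (5 of 7 genes lower), T cell markers from 176–189 to 226–264 CPM (4 of 8 higher), fibroblast markers from 798–876 to 392–553 CPM (3 of 5 lower) and B16 melanoma markers from 1663–1807 to 767–1203 CPM (5 of 7 lower). B cell markers went from 37.3–41.8 to 57.5–82.9 CPM (3 of 5 higher), neutrophil markers from 93.5–113 to 76.2–87.1 CPM (3 of 5 tested lower) and endothelial markers from 97.4–99.1 to 86.3–90.4 CPM (1 of 5 lower). Sums of macrophage markers (14707–19047 and 16587–16642 CPM, 1 of 12 higher, 2 lower) and conventional dendritic cell markers (102–115 and 103–111 CPM, 1 of 7 higher, 2 lower) overlapped. The part of these marker shifts in the values of the 8 genes, or of the pathway genes below, was not tested.

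**Figure D2:**
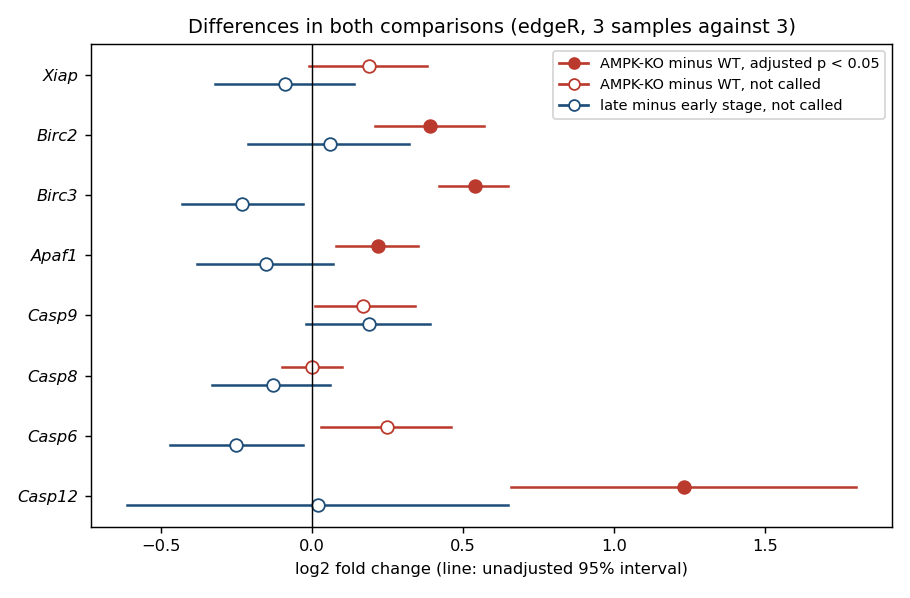
Log2 fold change of each gene (x axis) for AMPK-KO minus WT in red and late minus early stage in blue, with unadjusted 95% intervals from edgeR (3 samples against 3). Filled points passed the adjusted test, which are Birc2, Birc3, Apaf1 and Casp12 in the knockout comparison, and no blue point is filled.

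To compare levels between genes, CPM were divided by the union exon length of each gene in kilobases. Casp8 had the highest level on this scale, with 51.5 CPM per kb in WT, 51.5 in AMPK-KO, 44.4 in early-stage and 40.4 in late-stage samples. Birc3 came next, at 14.5, 21, 14.0 and 11.9 CPM per kb in the same order of groups. Xiap was at 9.09, 10.3, 10.1 and 9.46 CPM per kb and Apaf1 at 8.38, 9.75, 8.51 and 7.65 CPM per kb, and the ranges of this pair overlapped in all groups but the late-stage one. Casp9 followed at 7.21, 8.14, 6.54 and 7.45 CPM per kb and Birc2 at 6.15, 8.07, 6.47 and 6.73 CPM per kb. Neighbours here overlapped in AMPK-KO, early-stage and late-stage samples, and with the longest transcript as the length Birc2 stood above Casp9 in the AMPK-KO and early-stage groups. Casp6 was at 3.80, 4.51, 3.47 and 2.92 CPM per kb. Casp12 was the lowest by far, at 0.426, 1.00, 0.642 and 0.652 CPM per kb. The tables were scaled separately, so levels across them are set side by side without a test.

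**Figure D3:**
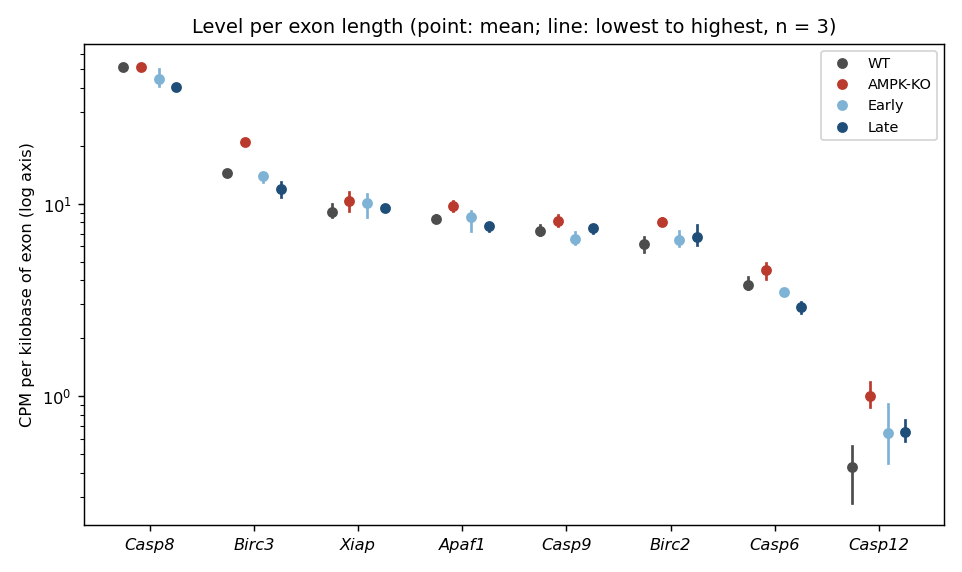
CPM per kilobase of exon on a log axis for each gene in the 4 groups, with a point at the mean and a line from the lowest to the highest sample (n = 3). Casp8 is highest at 40.4 to 51.5, Casp12 lowest at 0.426 to 1.00, and the genes from Xiap to Birc2 lie close together.

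Part of the reads of some genes could come from near-identical copies, since the treatment of reads with several matches is not given in the sources used here. Of all stretches of 50 bases in its transcripts, 7.56% of Birc3 occurred in transcripts of other genes, mainly the pseudogene Gm7019. The share was 4.37% for Casp8, with Gm20257, and 1.49% for Birc2, which shares stretches with Birc3. It stayed under 1% for the others, and no such stretch was found for Casp12.

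For each gene called, the 2 genes with the most similar profile were found by the root-mean-square difference of log2 CPM, centred within each table, over 12 samples and 16811 genes. They were Zbtb18 (0.062) and Jak2 (0.0628) for Birc3, Atp8a1 (0.0697) and Map3k15 (0.0743) for Birc2, and Slk (0.0371) and Amd1 (0.0373) for Apaf1. The nearest profiles to Casp12 were farther off, at 0.258 for A930007I19Rik and 0.26 for 4933424M12Rik. These distances are not scaled to the spread of each gene. The centred values of Casp12 had a root-mean-square of 0.547, against 0.218 for Birc3, 0.178 for Birc2 and 0.132 for Apaf1. Jak2 had log2 fold changes of 0.53 (edgeR adjusted p = 0.000244) in the knockout comparison and −0.27 (adjusted p = 0.0682) in the stage comparison, and Zbtb18 had 0.57 (adjusted p = 3.87e-05) and −0.11 (adjusted p = 0.489). Both were picked for likeness to Birc3 over these same samples. Fold changes near those of Birc3 follow from that choice and are no separate evidence.

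The other genes of the pathway were taken from 6 lists of 62 genes in all, chosen with earlier results of these data known. No test over a list was run. Counts in each list are to be read beside all genes tested, of which 11.3% were higher and 9.78% lower in AMPK-KO samples. Those shares were not matched to the lists in count level. In AMPK-KO samples 22 of the 59 tested were higher and 4 lower (44.1% called, beside 21.1% of all genes), with a median log2 fold change of 0.15. Calls of 12 of these 26 genes held in all 12 alternatives, among them Casp1, Casp4, Naip2, Arel1, Traf1, Tnfrsf1b, Lmna, Nfkbia, Nfkbie, Nfkb1 and Rel.

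Among the other caspases, Casp4 and Casp1, inflammatory caspases of the same cluster as Casp12, were higher in AMPK-KO samples. Casp4 rose from 44.4 ± 1.31 to 59.0 ± 1.80 CPM, by 0.41 on the log2 scale (adjusted p = 0.000613), and Casp1 from 83.9 ± 2.81 to 101 ± 4.74 CPM, by 0.27 (adjusted p = 0.00722). Casp2, an initiator-type caspase, stood 0.40 higher on the log2 scale (adjusted p = 0.00919, but 0.0575 without AMPK-KO replicate 2). Casp14 had no counts in these 6 samples.

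Of 6 other genes with the BIR domain that defines IAP proteins, 2 were higher and 1 lower. Naip2, an inflammasome sensor gene, rose from 63.9 ± 5.82 to 88.7 ± 4.73 CPM, by 0.47 on the log2 scale (adjusted p = 0.00115), and Naip5 had 0.31 (adjusted p = 0.0297). Naip genes are close copies of each other, so reads may be split between them. Birc5, the cell-division gene of survivin, had −0.31 (adjusted p = 0.0291). The calls of Naip5 and Birc5 were lost without AMPK-KO replicate 1 or 2 or WT replicate 2 or 3, and that of Naip5 also without AMPK-KO replicate 3 (adjusted p 0.061 to 0.114). With no filter on low counts neither was called (Naip5 0.0731, Birc5 0.0571).

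Of 8 apoptosome partners and IAP antagonists, 2 were higher and 1 lower. Arel1, a ubiquitin ligase that acts on IAP antagonists, rose from 62.6 ± 2.76 to 79.5 ± 5.48 CPM, by 0.35 on the log2 scale (adjusted p = 0.00387). Xaf1, a gene of an XIAP-binding protein, had 0.19 (adjusted p = 0.0467) and Aven, whose protein binds Apaf1, had −0.41 (adjusted p = 0.0264). Xaf1 was not called without AMPK-KO replicate 1, 2 or 3 or WT replicate 1 or 3 (adjusted p 0.0688 to 0.169), and Aven was not called without AMPK-KO replicate 1 or 2 or WT replicate 1 or 2 (0.0512 to 0.107). Xaf1 was also lost with no filter (0.0887) and with upper-quartile factors (0.0686). The mitochondrial factors of the route, named for their role after their values were seen, did not pass the test, namely cytochrome c (Cycs, log2 fold change −0.17, adjusted p = 0.0921), Diablo (−0.06, adjusted p = 0.664) and Htra2 (−0.07, adjusted p = 0.526).

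Around caspase-8, 5 of 14 genes were higher and none was lower, at an unadjusted p under 0.05 included. Traf1, an adaptor that binds the cIAP proteins and a known NF-kB target, had 45.6, 45.9 and 45.8 CPM in WT and 75.6, 73.8 and 82.7 CPM in AMPK-KO samples. The groups were far apart, with a log2 fold change of 0.76 (adjusted p = 1.29e-05). Tnfrsf1b, which encodes TNF receptor 2, rose from 391 ± 4.68 to 477 ± 4.67 CPM (0.29, adjusted p = 0.000581). Cflar, the caspase-8 inhibitor cFLIP, had 0.19 (adjusted p = 0.0256), Rnf34, a ubiquitin ligase of caspase-8, had 0.25 (adjusted p = 0.0145) and Traf2, the adaptor that brings cIAPs to the receptor and named after its value was seen, had 0.29 (adjusted p = 0.0415). Calls were lost for Cflar without AMPK-KO replicate 1 or 2 or WT replicate 2 or 3 (adjusted p 0.0806 to 0.103), for Rnf34 without AMPK-KO replicate 3 (0.0538) and for Traf2 without AMPK-KO replicate 1, 2 or 3 or WT replicate 3 (0.0741 to 0.164). No filter also ended the calls of Cflar (0.0529) and Traf2 (0.0864), and upper-quartile factors that of Traf2 (0.0566). The adaptor Fadd (log2 fold change −0.18, adjusted p = 0.171), the death receptor Fas (−0.20, adjusted p = 0.26) and Tnfrsf1a (−0.10, adjusted p = 0.159) had negative values that did not pass, and were likewise named after these were seen.

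Of 16 NF-kB pathway genes around the cIAPs, 7 were higher and 1 lower. Nfkb1 had 197, 198 and 199 CPM in WT and 260.5, 264 and 262 CPM in AMPK-KO samples, groups that lay wide apart (log2 fold change 0.40, adjusted p = 8.22e-05). Nfkbie, an inhibitor of NF-kB, rose from 58.6 ± 5.35 to 93.3 ± 1.35 CPM (0.67, adjusted p = 6.99e-05) and the subunit gene Rel from 47.9 ± 5.07 to 69.2 ± 1.59 CPM (0.53, adjusted p = 0.000699). The inhibitor gene Nfkbia went the other way, from 335 ± 20.2 to 269 ± 8.07 CPM (−0.32, adjusted p = 0.00212). The other 4 higher genes, Nfkb2, Relb, Ikbkb and Map3k14, were named after their values were seen and had log2 fold changes of 0.21, 0.23, 0.23 and 0.26. Without WT replicate 3 none of these 4 passed (adjusted p 0.0522 to 0.0857). Without AMPK-KO replicate 2, Nfkb2 (0.0519), Ikbkb (0.0611) and Map3k14 (0.0771) did not, nor did Map3k14 without AMPK-KO replicate 1 (0.0649). The RNA of Map3k14, the kinase NIK, says nothing of its protein, which cIAPs are known to hold low.

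Of 10 caspase substrates, Lmna, the lamin A/C gene, fell from 391 ± 15.0 to 241 ± 11.4 CPM, a log2 difference of −0.70 (adjusted p = 7.54e-06). Rock1, the kinase behind membrane blebbing, had 0.30 (adjusted p = 0.011), a call lost without AMPK-KO replicate 1 or 2 or WT replicate 3 (0.0542 to 0.0654). The remaining 8 genes of this list were not called. Its calls, 1 higher and 1 lower of 10, thus lay near the 21.1% called of all genes.

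Between stages, 4 of the same 59 pathway genes were higher and 6 lower in late-stage samples (16.9% called, beside 9.18% of all genes), with a median log2 fold change of −0.04. Of these calls, that of Lmnb1, a lamin gene, held in all 12 alternatives, with a rise from 112 ± 7.11 to 179 ± 1.65 CPM, by 0.67 on the log2 scale (adjusted p = 0.000482). Parp1, the DNA repair gene whose protein caspases cleave, had 0.37 (adjusted p = 0.00603), and Birc5 had 0.55 (adjusted p = 0.00863). Nfkb1 had 0.26 (adjusted p = 0.0473).

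Lower in late-stage samples were Casp4, from 48.5 ± 5.68 to 33.5 ± 3.26 CPM, a log2 difference of −0.53 (adjusted p = 0.017), and Casp1, from 96.5 ± 9.64 to 74.9 ± 0.795 CPM (−0.37, adjusted p = 0.026). Both had been higher in AMPK-KO samples, in a separate table, and the difference between the comparisons was not tested. Nfkbie (−0.52, adjusted p = 0.00715), Xaf1 (−0.38, adjusted p = 0.0167), Tnfrsf1b (−0.30, adjusted p = 0.0155) and Tnfrsf21, which encodes death receptor 6 (−0.32, adjusted p = 0.0162), were the other lower genes. All calls between stages but that of Lmnb1 were lost without early-stage replicate 2 or late-stage replicate 2 (adjusted p 0.0502 to 0.193). Without late-stage replicate 3 the same held but for Parp1, which stayed called (the others 0.0529 to 0.173). Without late-stage replicate 1, Casp1 (0.0932), Tnfrsf1b (0.0624), Tnfrsf21 (0.0695) and Nfkb1 (0.13) were lost, and without early-stage replicate 3, Nfkb1 (0.0569). Nfkb1 was also lost with no filter (0.0821) and with upper-quartile factors (0.0599), and Casp1 with no filter (0.0562).

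**Figure D4:**
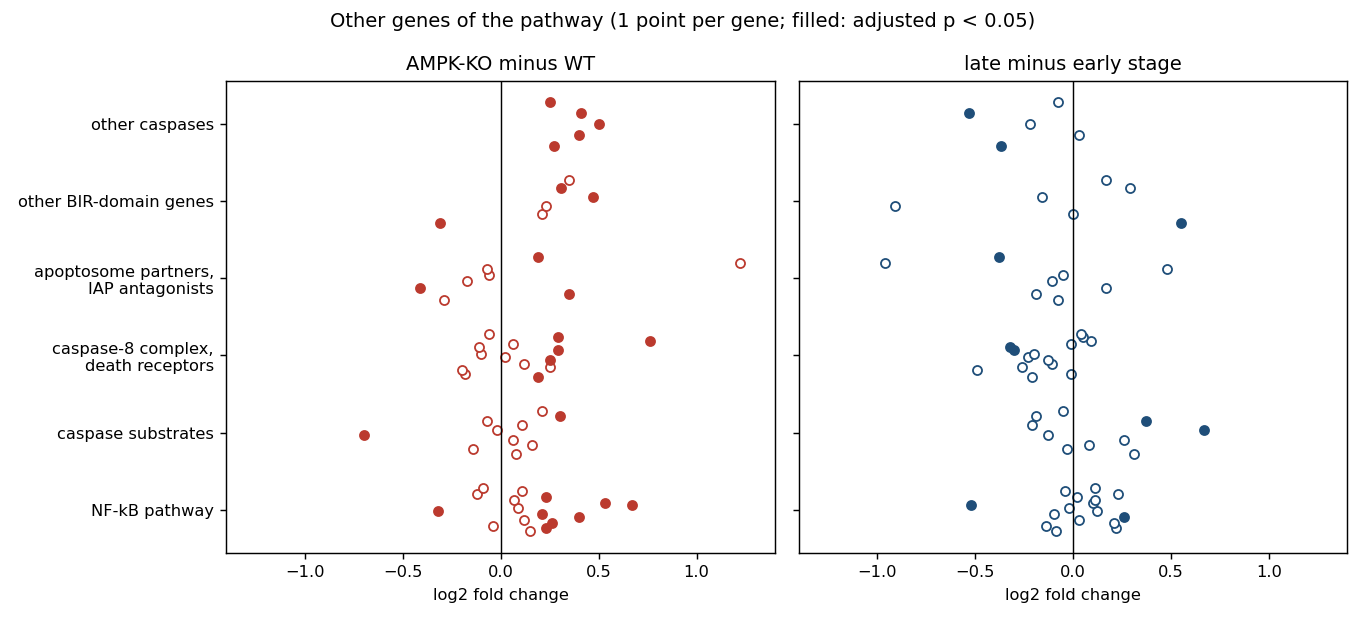
Log2 fold change (x axis) of each tested gene of the 6 pathway lists, 1 point per gene, with AMPK-KO minus WT on the left and late minus early stage on the right. Filled points passed the adjusted edgeR test, 26 of 59 on the left, most of them to the right of 0, and 10 of 59 on the right.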

How the data were processed

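RNA of sorted TAMs was sequenced in 12 samples, 3 per group. The deposited files are raw gene counts, 1 table per comparison, for which the authors aligned with HISAT2 and used featureCounts. Versions, strand and the handling of multiply mapped reads are not given in the sources used here, and the methods write GRCh38 where the labels give GRCm38. Of 55401 identifiers, 54349 match GENCODE M21 with their version, and positions come from it. No per-sample column was left unused.

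Each table was filtered with filterByExpr, scaled by TMM and fitted on its own without covariates by the quasi-likelihood test of edgeR 4.0.16 (R 4.3.3, limma 3.58.1), with Benjamini-Hochberg adjustment over all genes tested and a threshold of 0.05. The scripts were tested on simulated data. CPM are counts scaled to the TMM-adjusted library size, and log2 CPM used a prior count of 2. SE is the log2 fold change divided by the root of the F statistic. DESeq2 1.42.0, RLE factors, upper-quartile factors, no filter, at least 10 counts in every sample, a block for the replicate number and leaving out each sample were the alternatives. Fits without a sample leave 2 in that group and pool the spread over the remaining 5.

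The 8 genes, the pathway lists and the marker lists were chosen with earlier results of these data known. Named were all 8 genes, up to 4 called genes per pathway list and comparison by adjusted p, and the 2 most similar profiles per called gene. The authors' own rule (DESeq2, a p-value under 0.05 that is not said to be adjusted, and a fold-change limit) was not used. Of the 4 genes called here in AMPK-KO samples, only Casp12 (log2 fold change 1.23) lies beyond that fold-change limit. DESeq2 was run only as an alternative, with adjusted p-values and without the limit. Some genes of the pathway lists are not reported here by name.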

Additional observations from a re-analysis of the deposited data

How the results depend on the processing

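Over RLE and upper-quartile factors, DESeq2, no filter, a minimum of 10 counts in every sample, the replicate block and each sample left out, Casp12, Birc2 and Birc3 stayed called higher in AMPK-KO samples, and 3 to 4 of the 8 genes were called, the difference being Apaf1. Values near 0 changed sign: Casp8 in the knockout comparison was −0.01 with no filter and with upper-quartile factors and −0.01 to 0.01 with a sample left out, and between stages Casp12 ran from −0.18 to 0.36 and Birc2 from −0.05 to 0.14 with a sample left out. With a sample left out, the genes called lower in AMPK-KO samples numbered 1068 to 1937, and the pathway genes 12 to 22 higher and 2 to 5 lower. Between stages the same gave 284 to 1514 genes higher, 369 to 1321 lower, 0 to 1 of the 8 genes lower, and 1 to 8 pathway genes higher and 0 to 8 lower. Genes called between stages also numbered 1162 higher with DESeq2, and 429 higher and 507 lower with no filter. The cause was not tested. No pairing of samples by replicate number was seen. Correlations of same-numbered deviations were −0.004 to 0.042 and 0.013 to 0.026, and those of differently numbered ones −0.048 to 0.047 and −0.061 to 0.041. Deviations were centred within groups of 3 samples, so these values cannot exclude a weak pairing. The replicate block gave 2029 genes called higher with the knockout and 1833 lower, and 674 higher with late stage and 743 lower. The block changed no call of the 8 genes, and of the named pathway genes it ended those of Xaf1 in AMPK-KO samples (0.0618) and Nfkb1 between stages (0.0834). Upper-quartile factors moved the median of all genes to −0.017 and −0.012. Casp12 had the fewest counts of the 8 genes, 77 to 333 per sample, and between stages its interval allows both directions. How much of its spread is counting error was not tested.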
